A study of Mus musculus with 6 samples.

Results

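RNA bound to ribosomes was compared between lungs with and without functional copies of Yap1 and Wwtr1 in PDGFRB-expressing cells, for 10 genes of the smooth muscle contractile apparatus. The genes were Acta2, Actg2, Tagln, Myh11, Cnn1, Myl9, Lmod1, Des, Synpo2 and Smtn, taken by symbol from a list of names, with no cut on a measured value, though earlier results of these data were known when the list was made. All 10 of them were found among the 21603 genes in the files, and all 10 were among the 12034 that reached 1 RPKM in 3 or more of the 6 libraries and were tested. RPKM is the read number divided by exon length and by the depth of the library, which allows a rough comparison of levels between genes. The exon lengths used are not given, and reads of overlapping or closely alike genes may not have been told apart.

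The 3 control libraries came from C57BL/6 lungs at P8 with the labelled genotype Yap1+/-;Wwtr1+/-, and the 3 Yap1,Wwtr1 iPCKO libraries from lungs labelled Yap1-/-;Wwtr1-/-. By the methods, both groups carried the tamoxifen-inducible transgene Pdgfrb(BAC)-CreERT2 and 1 Cre-dependent copy of Rpl22 that tags this ribosomal protein with HA, and both received tamoxifen from P0 to P2. The controls had lost a single copy of Yap1 and of Wwtr1 in the recombined cells, so they are not wild type. Anti-HA immunoprecipitation from whole lung lysate then recovered ribosomes of any cell in which the Pdgfrb transgene had been active, which includes vascular smooth muscle cells where these express it. In such a pooled lysate, fewer cells of a type and less RNA per cell cannot be told apart. With tamoxifen from P1 to P3, the paper saw no Cre reporter in αSMA+ bronchial smooth muscle cells or myofibroblasts. RNA typical of other cells was present too, with Sftpc of alveolar epithelium at 338 to 468 RPKM. Whether smooth muscle or myofibroblast RNA from cells without Cre activity was also present was not tested. The labels do not say that each library came from a separate mouse, so p-values measure the spread between these libraries.

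Smooth muscle contracts when myosin II filaments, built from heavy chains and light chains, pull on actin filaments that calponin, transgelin and tropomyosin decorate. Myosin is switched on when a kinase phosphorylates its regulatory light chain. Many of the genes are driven by serum response factor (SRF), which binds the CArG box and acts with myocardin or the related MRTF proteins, and several have MCAT elements, the binding sites of TEAD factors, through which YAP and TAZ (the products of Yap1 and Wwtr1) act. In the lung the genes are known from airway and vascular smooth muscle, from alveolar myofibroblasts and, at lower levels, from mural cells of small vessels.

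Yap1 was at 13.2, 11.5 and 12.4 RPKM in the controls and at 5.76, 5.83 and 5.25 RPKM in iPCKO libraries (log2 fold change -1.12, limma adjusted p = 0.000175). Wwtr1 averaged 60.4 RPKM in controls and 62.0 RPKM in iPCKO libraries (0.05, adjusted p = 0.822), so its loss was not seen in these values. For both genes the value sums reads over all exons, inside and outside the floxed part, and the floxed part alone was not tested. Pdgfrb was high in every library, between 1193 and 1666 RPKM. The low values imply 14.24 to 39.58 M reads per library, in overlapping ranges of the groups. Over 10 neutrophil genes the summed level was 87.1 to 129 RPKM in controls and 449 to 4949 RPKM in iPCKO libraries, with iPCKO 3 the highest, and 6 of the 10 passed the thresholds as higher. Over 10 leukocyte genes the sum was 166 to 247 RPKM against 465 to 728 RPKM, most of it Lyz2 (119 to 368 RPKM), and 5 of the 10 passed as higher. Over 10 epithelial genes it was 565 to 655 RPKM against 837 to 887 RPKM, most of it Sftpc (363 to 454 RPKM, not called). Of the 9 epithelial genes tested, 2 passed as higher and 0 as lower. Of 9 endothelial genes tested, 2 were higher (Kdr, 15.4 to 26.2 RPKM, and Vwf, 4.14 to 6.91 RPKM), and of 3 mesothelial genes 1 was (Msln, 3.20 to 6.44 RPKM). Over all genes tested, 4.11% passed as higher. The part of these cells in the changes below was not tested.

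A gene was called changed if its adjusted p was under 0.01 and its log2 fold change beyond 0.5 in either direction, the thresholds for all calls here. The contractile genes did not change as a block. Actg2 and Cnn1 were higher in iPCKO libraries, Myl9, Synpo2 and Lmod1 were lower, and Acta2, Tagln, Myh11, Des and Smtn passed neither way. These 2 higher and 3 lower genes of 10 stand beside 4.11% and 2.68% of all genes tested, 6.79% in either direction. In the same 5 genes, and in none of the other 5, the libraries of the groups did not overlap, which was the case for 18.3% of all genes in the higher and 17.1% in the lower direction, 35.5% in either. All 5 were also called with any single library left out. The median log2 fold change over the 10 genes was -0.07, against -0.00 over all genes tested.

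**Figure D1:**
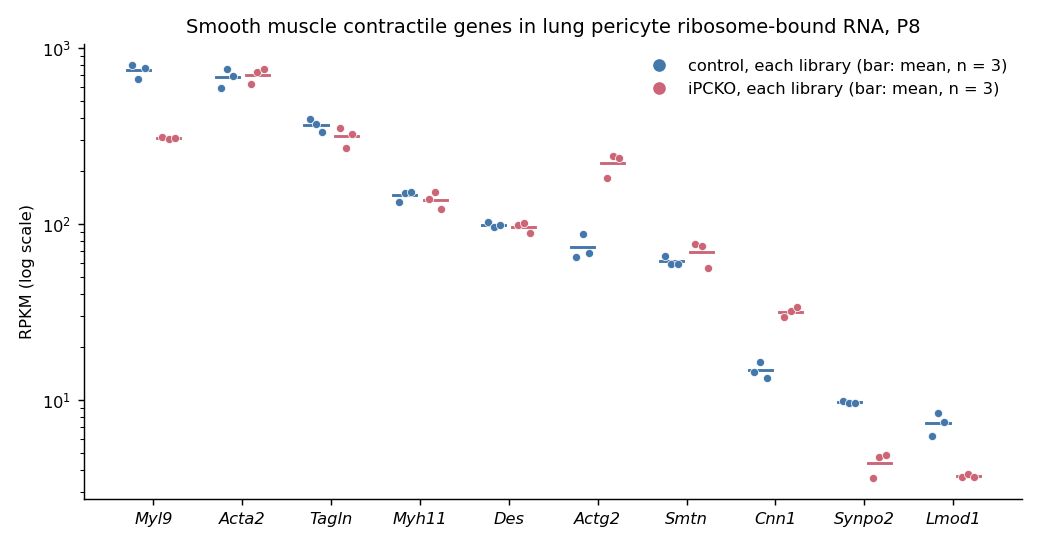
Level of each of the 10 genes in RPKM on a logarithmic axis, ordered by control mean, with 1 point per library and a bar at the mean of the 3 control or 3 iPCKO libraries. The iPCKO points lie wholly above the control points for Actg2 and Cnn1 and wholly below them for Myl9, Synpo2 and Lmod1.

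The smooth muscle actins were the genes of the thin filament itself. Acta2 (ENSMUSG00000035783, chr19:34241090-34255590, minus strand, GRCm38) encodes the alpha actin of vascular smooth muscle. It was at 594, 757 and 698 RPKM in control libraries 1 to 3 and at 626, 731 and 760 RPKM in iPCKO libraries 1 to 3. The groups overlapped, with the lowest and the second highest of the 6 values in the controls. The log2 fold change was 0.05 (95% interval -0.29 to 0.39, limma adjusted p = 0.865), and its sign changed between settings of the analysis.

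Actg2 (ENSMUSG00000059430, chr6:83512905-83536265, minus strand) encodes the gamma actin that prevails in enteric smooth muscle. It was at 65.1, 87.9 and 68.1 RPKM in controls and at 183, 245 and 238 RPKM in iPCKO libraries. Every iPCKO library held more than 2 times the Actg2 of the highest control. The means were 73.7 ± 12.4 and 222.0 ± 33.8 RPKM (SD, n = 3), a 3.01-fold rise (log2 fold change 1.59, SE 0.155, adjusted p = 0.000372). Among all genes, Actg2 moved from rank 523 by control mean to rank 116 by iPCKO mean.

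Since the actins are close relatives, the reads of each had to be told apart. The last 90 coding bases of both transcripts, stop codon included, are shown to let their differences be seen, with the 16 differing bases in capitals:
Acta2: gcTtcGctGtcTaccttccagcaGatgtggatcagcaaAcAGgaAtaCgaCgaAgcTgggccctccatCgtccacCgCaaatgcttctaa
Actg2: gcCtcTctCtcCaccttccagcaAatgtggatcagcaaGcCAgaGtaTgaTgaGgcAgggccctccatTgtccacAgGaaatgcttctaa
Over the 1131 coding bases aligned from the stop codon, 183 differed (83.8% identical), and the longest identical run was 29 bases. No stretch of 75 bases, the read length, of an annotated transcript of any of the 10 genes occurred in a transcript of another gene.

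Actg2 made up 9.88%, 10.4% and 8.89% of the summed RPKM of both smooth muscle actins in controls, and 22.6%, 25.1% and 23.9% in iPCKO libraries. The share was above all control values in all 3 iPCKO libraries (exact permutation test, two-sided, p = 0.1, the smallest that 3 against 3 allows, and 0.14 after Benjamini-Hochberg adjustment over 7 such shares). The sum of both was 757 ± 93.0 RPKM in controls and 928 ± 103 RPKM in iPCKO libraries. Both smooth muscle actins together held 23.8% of the RPKM of the 6 actin genes in controls and 26.0% in iPCKO libraries, with overlapping values (exact permutation p = 0.2). The cytoplasmic actins, which every cell uses, gave no call. Actb had a log2 fold change of 0.13 (adjusted p = 0.656). Actg1 had 0.01 (adjusted p = 0.976), with 54.5% of its 75-base stretches shared with pseudogenes.

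The thick filament genes parted from each other. Myh11 (ENSMUSG00000018830, chr16:14194535-14291372, minus strand) encodes the smooth muscle myosin heavy chain. It was at 133, 151 and 153 RPKM in controls and at 139, 152 and 121 RPKM in iPCKO libraries. The ranges overlapped over most of their length, and the log2 fold change was -0.09 (95% interval -0.35 to 0.18, adjusted p = 0.671). Its share of the RPKM of 4 myosin heavy chain genes was 20.7% in controls and 21.7% in iPCKO libraries (exact permutation p = 0.5). The nonmuscle heavy chains Myh9 (-0.15, adjusted p = 0.588) and Myh10 (-0.31, adjusted p = 0.262) were not called either.

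Myl9 (ENSMUSG00000067818, chr2:156775420-156781658, plus strand) encodes the regulatory light chain of smooth muscle myosin. It was at 806, 666 and 776 RPKM in controls and at 314, 305 and 307 RPKM in iPCKO libraries. The iPCKO libraries were close to each other (CV 1.47%) and all below the lowest control. The mean of 309 ± 4.53 RPKM was 41.2% of the control mean of 749 ± 73.8 RPKM (SD, n = 3), a log2 fold change of -1.27 (SE 0.124, adjusted p = 0.000372).

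Myl9 was the highest of the 10 genes in controls, with values that overlapped those of Acta2, and the third in iPCKO libraries, after Acta2 and a Tagln whose values overlapped its own. Its rank among all genes went from 14 to 73. The regulatory light chains of nonmuscle type were also lower, Myl12b by call (126 to 79.1 RPKM, log2 fold change -0.67, adjusted p = 0.00334) and Myl12a without one (150 to 124 RPKM, -0.27, adjusted p = 0.169). Of the 75-base stretches of Myl12a, 26.9% are also in Myl12b, so that their separate values are uncertain. Of the stretches of Myl12b, 3.53% are shared with another gene. The Myl12b call was lost when control 1, control 3, iPCKO 2 or iPCKO 3 was left out, with adjusted p up to 0.0169. The 3 light chains summed to 1024 ± 95.3 RPKM in controls and 511 ± 20.2 RPKM in iPCKO libraries. The Myl9 share of this sum was 72.3% to 74.2% in controls and 58.3% to 62.9% in iPCKO libraries (exact permutation p = 0.1, adjusted 0.14).

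**Figure D2:**
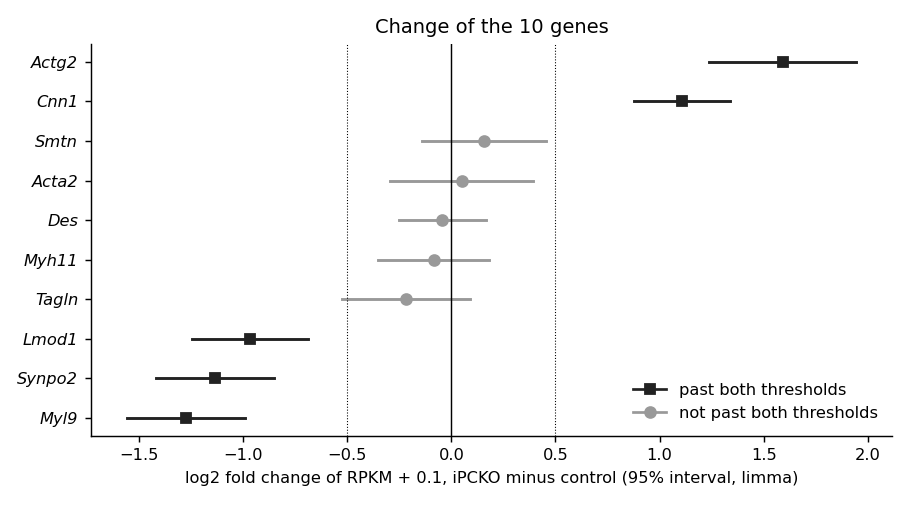
Log2 fold change of RPKM + 0.1 (iPCKO minus control) of the 10 genes with its 95% interval from limma. Squares are genes past both thresholds and circles are genes that are not, and dotted lines mark a change of 0.5 in either direction. Actg2 at 1.59 and Cnn1 at 1.11 lie to the right, Lmod1 at -0.97, Synpo2 at -1.13 and Myl9 at -1.27 to the left, and the intervals of the others include 0.

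Calponin and transgelin are related proteins that lie along actin filaments, and calponin restrains the myosin ATPase. Cnn1 (ENSMUSG00000001349, chr9:22099216-22109630, plus strand), the calponin of differentiated smooth muscle, was at 14.4, 16.4 and 13.3 RPKM in controls and at 29.5, 31.9 and 33.8 RPKM in iPCKO libraries. The lowest iPCKO value was well above the highest control. The rise was 2.16-fold, from 14.7 ± 1.53 to 31.8 ± 2.16 RPKM (SD, n = 3; log2 fold change 1.11, SE 0.102, adjusted p = 0.000293).

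The calponin found in many cell types, Cnn2, was at 355, 306 and 339 RPKM in controls and at 202, 185 and 163 RPKM in iPCKO libraries. It was thus far more abundant than Cnn1 and lower in all 3 iPCKO libraries (log2 fold change -0.86, adjusted p = 0.00217). Without control 3, iPCKO 2 or iPCKO 3 its adjusted p was 0.014, 0.0112 and 0.0105. Cnn3 did not pass (-0.02, adjusted p = 0.932). Cnn1 therefore went from 2.60% to 7.39% of the RPKM of the 3 calponins and Cnn2 from 58.6% to 42.3%, with no overlap of the groups in either share (exact permutation p = 0.1 each, adjusted 0.14), while the sum went from 568 ± 33.5 to 433 ± 34.2 RPKM.

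Tagln (ENSMUSG00000032085, chr9:45929619-45936058, minus strand), transgelin or SM22, was at 394, 370 and 335 RPKM in controls and at 352, 271 and 325 RPKM in iPCKO libraries. iPCKO 1 lay within the range of the controls and the other iPCKO libraries below it, and the log2 fold change of -0.22 (95% interval -0.53 to 0.09) had an adjusted p of 0.321. An annotated antisense gene, Gm48529, overlaps 62.4% of its exon bases. The sources used here do not give the strand setting of the read counting, so reads of the partners may not have been told apart.

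Tagln2, the transgelin of nonmuscle cells, was at 51.8, 55.0 and 39.0 RPKM in controls and at 109, 119 and 111 RPKM in iPCKO libraries. It was higher in all 3 iPCKO libraries (log2 fold change 1.23, adjusted p = 0.000619) and called with any library left out. Its share of the transgelin pair went from 11.7% ± 1.25 to 26.6% ± 3.53 (SD, n = 3; exact permutation p = 0.1, adjusted 0.14), and the sum of the pair was 415 and 429 RPKM. Over the list of 21 nonmuscle and striated paralogs, 16 could be tested, of which 1 was higher (Tagln2), 2 were lower (Cnn2 and Myl12b) and 13 were not called, with a median log2 fold change of 0.01. That count of 3 fell to 1 without control 3, iPCKO 2 or iPCKO 3. Over all genes tested, 4.11% were called higher and 2.68% lower.

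**Figure D3:**
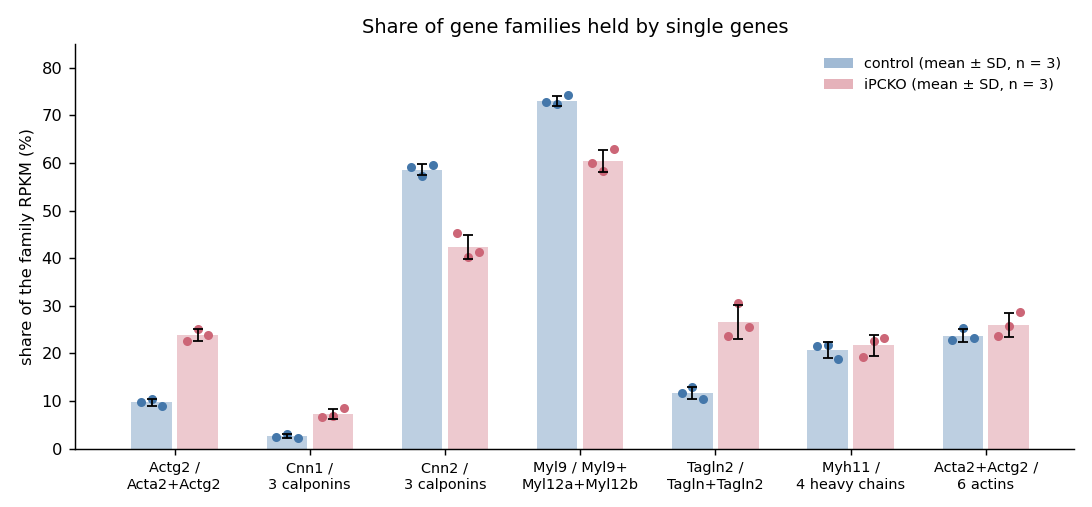
Share in percent of a family's summed RPKM held by the named gene or genes, in each library (points), with the mean (bar) and SD (error bar) of 3 control and 3 iPCKO libraries. The groups do not overlap for Actg2 of the smooth muscle actins, Cnn1 and Cnn2 of the calponins, Myl9 of the regulatory light chains and Tagln2 of the transgelins, and they overlap for Myh11 and for the smooth muscle actins among the 6 actins.

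The other genes nucleate, bundle or anchor filaments. Lmod1 (ENSMUSG00000048096, chr1:135324807-135368065, plus strand), leiomodin 1, which nucleates actin filaments in smooth muscle, was at 6.20, 8.41 and 7.47 RPKM in controls and at 3.65, 3.78 and 3.63 RPKM in iPCKO libraries. The iPCKO libraries were close to each other and all below the controls, at 50.1% of the control mean (log2 fold change -0.97, SE 0.122, adjusted p = 0.0013). It was the lowest of the 10 genes, and the implied number of its reads was 482 to 1022 in controls and 204 to 591 in iPCKO libraries.

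Synpo2 (ENSMUSG00000050315, chr3:123076519-123236149, minus strand), synaptopodin 2 or myopodin, bundles actin and binds alpha-actinin. It was at 9.84, 9.53 and 9.66 RPKM in controls and at 3.58, 4.75 and 4.85 RPKM in iPCKO libraries. The controls were almost the same (CV 1.61%), and all iPCKO libraries were below them, at 45.4% of the control mean (log2 fold change -1.13, SE 0.125, adjusted p = 0.00067). Lmod1 and Synpo2 overlapped in iPCKO libraries but not in controls.

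Smtn (ENSMUSG00000020439, chr11:3517523-3540612, minus strand), smoothelin, an actin-binding protein of contractile smooth muscle, was at 65.7, 58.9 and 59.6 RPKM in controls and at 76.5, 74.9 and 56.0 RPKM in iPCKO libraries. iPCKO 1 and 2 were above all controls and iPCKO 3 below them, and the log2 fold change of 0.16 (95% interval -0.14 to 0.46) did not pass (adjusted p = 0.468). Genes on the opposite strand overlap its exons, Gm11946 over 16.3% of the bases.

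Des (ENSMUSG00000026208, chr1:75360329-75368579, plus strand), desmin, the intermediate filament of muscle and of pericytes, was at 102, 96.4 and 98.1 RPKM in controls and at 98.1, 101 and 89.0 RPKM in iPCKO libraries. It had the narrowest interval around 0 of the 10 genes (log2 fold change -0.04, -0.25 to 0.17, adjusted p = 0.794). Vimentin, the intermediate filament of mesenchymal cells in general, averaged 418 RPKM in controls and 551 RPKM in iPCKO libraries (Vim, 0.39, adjusted p = 0.113).

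The summed level of the 10 genes was 2190, 2221 and 2217 RPKM in controls and 1825, 1921 and 1938 RPKM in iPCKO libraries. Without Myl9 the sums were 1385, 1556 and 1442 RPKM against 1511, 1615 and 1631 RPKM, above the range of the controls in iPCKO 2 and 3 only. The mean log2 level, which weighs the genes equally, differed by -0.08 over the 10 genes and by 0.05 without Myl9.

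Other parts of the contractile apparatus were described by a list of 25 further genes, of which 23 could be tested. Of these, 3 were called higher, 0 lower and 20 neither, beside 4.11% higher and 2.68% lower over all genes tested. The median log2 fold change over the 23 was 0.12. The called genes were Hspb7, a small heat shock protein of muscle (2.44, 2.40 and 2.17 RPKM in controls against 7.69, 9.34 and 6.28, log2 fold change 1.68, adjusted p = 0.000233), Pdlim3, an alpha-actinin binding protein (0.89, adjusted p = 0.00916), and Tes, a focal adhesion LIM protein (0.72, adjusted p = 0.00652). At an unadjusted p below 0.05 in limma, 6 of the 23 were higher and 0 lower, beside 16.1% and 13.6% of all genes tested.

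The count of 3 fell to 1 when control 1, control 3, iPCKO 2 or iPCKO 3 was left out, since Pdlim3 and Tes then missed the threshold, whereas Hspb7 stayed called each time. Near the threshold were Csrp1, an LIM protein of smooth muscle (362 to 553 RPKM, 0.61, adjusted p = 0.0162), and Tpm2, beta-tropomyosin (76.9 to 106 RPKM, 0.46, adjusted p = 0.013), each higher in all 3 iPCKO libraries but not called. Of the other decorating proteins, Tpm1 (0.02, adjusted p = 0.895) and Cald1 (caldesmon, -0.09, adjusted p = 0.558) had no call and overlapped between groups.

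For the pathway that phosphorylates the regulatory light chain, 0 of 19 genes tested were called, beside 6.79% of all genes. An unadjusted p below 0.05 in limma was found for 8 of the 19 (3 higher, 5 lower), beside 29.7% of all genes. The median log2 fold change was -0.11. Mylk, the myosin light chain kinase, was at 116, 114 and 119 RPKM in controls and at 105, 118 and 102 RPKM in iPCKO libraries (-0.11, 95% interval -0.32 to 0.11, adjusted p = 0.507). Its level thus overlapped between groups while that of its substrate Myl9 did not.

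The targeting subunits of myosin phosphatase were not called (Ppp1r12a 0.22, adjusted p = 0.16, and Ppp1r12b -0.11, adjusted p = 0.538). Its inhibitor Ppp1r14a (CPI-17) was at 341 ± 81.4 RPKM in controls and 252 ± 65.2 RPKM in iPCKO libraries, with overlap (-0.44, adjusted p = 0.216).

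**Figure D4:**
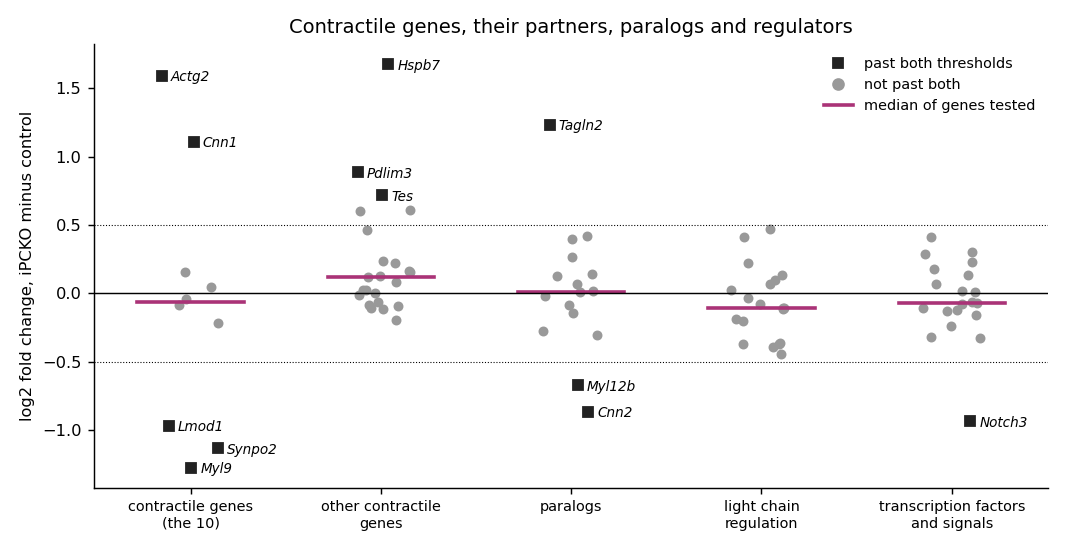
Log2 fold change (iPCKO minus control) of each gene tested in the 10 contractile genes, other contractile genes, nonmuscle and striated paralogs, light chain regulation, and transcription factors and signals. Named squares passed both thresholds, circles did not, lines mark list medians between -0.11 and 0.12, and dotted lines mark 0.5 in either direction.

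Of 20 tested transcription factors and signals known to act on these genes, 0 were called higher and 1 was called lower. Over all genes tested, these shares were 4.11% and 2.68%. An unadjusted p below 0.05 in limma was found for 4 in each direction, beside 16.1% higher and 13.6% lower of all genes. Srf was at 28.9, 25.1 and 24.9 RPKM in controls and at 27.1, 24.3 and 21.1 RPKM in iPCKO libraries, which overlapped (-0.12, adjusted p = 0.514). Its coactivator Myocd was at 4.18, 4.51 and 4.09 RPKM against 4.65, 6.47 and 6.10 RPKM, above the controls in all 3 iPCKO libraries but not called (0.41, adjusted p = 0.0771). The MRTF coactivators had 0.23 (Mrtfa, adjusted p = 0.138) and 0.02 (Mrtfb, adjusted p = 0.915). The gene called lower was Notch3, a Notch receptor of mural cells (343, 279 and 319 RPKM against 172, 155 and 163, -0.94, adjusted p = 0.00112). It did not overlap between groups, which was the case for 17.1% of all genes in the lower direction. In this list, 4 genes lay wholly below the controls, Notch3 among them, and 4 wholly above, close to the 17.1% and 18.3% of all genes tested.

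The RefSeq promoter table (GRCm38.p6) held windows of 250 bases before to 50 bases after the start site for 7 of the genes, Acta2, Cnn1, Des, Lmod1, Myl9, Smtn and Synpo2. They were searched on both strands for MCAT (CATTCC or GGAATG) and for the strict CArG box of SRF, which is CC, then 6 bases that are each A or T, then GG. No match of MCAT overlapped a strict CArG box. The strict CArG box was found in 1 window, that of Myl9, against 1.63% of 32851 windows of all genes. With 1 mismatch allowed, a search added after the data had been seen, the windows of Acta2, Lmod1 and Myl9 held 2 matches each, against 21.1% of all windows with any. SRF is known to bind such imperfect boxes, those of Acta2 among them. MCAT was found in the windows of Acta2, Lmod1 and Smtn, against 14.7% of all windows. The bases before the start site are shown for the 4 genes in the table that were called, Cnn1 as the higher and Myl9, Lmod1 and Synpo2 as the lower ones, with the strict CArG box of Myl9 and the MCAT of Lmod1 in capitals:
Cnn1 (chr9:22099003-22099252, plus strand): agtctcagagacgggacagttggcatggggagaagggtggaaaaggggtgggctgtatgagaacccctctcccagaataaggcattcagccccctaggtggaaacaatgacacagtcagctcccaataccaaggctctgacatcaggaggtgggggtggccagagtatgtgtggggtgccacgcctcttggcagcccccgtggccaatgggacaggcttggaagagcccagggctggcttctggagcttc
Myl9 (chr2:156775214-156775463, plus strand): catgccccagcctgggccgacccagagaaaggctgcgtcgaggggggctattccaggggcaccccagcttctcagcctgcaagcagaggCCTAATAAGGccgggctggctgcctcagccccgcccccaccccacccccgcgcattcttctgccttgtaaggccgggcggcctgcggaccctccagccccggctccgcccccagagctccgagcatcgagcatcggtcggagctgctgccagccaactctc
Lmod1 (chr1:135324563-135324812, plus strand): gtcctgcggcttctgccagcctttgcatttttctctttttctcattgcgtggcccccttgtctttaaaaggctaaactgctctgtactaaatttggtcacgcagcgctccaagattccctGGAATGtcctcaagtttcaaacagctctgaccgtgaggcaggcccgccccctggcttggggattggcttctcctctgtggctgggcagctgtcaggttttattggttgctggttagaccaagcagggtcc
Synpo2 (chr3:123236150-123236399, minus strand): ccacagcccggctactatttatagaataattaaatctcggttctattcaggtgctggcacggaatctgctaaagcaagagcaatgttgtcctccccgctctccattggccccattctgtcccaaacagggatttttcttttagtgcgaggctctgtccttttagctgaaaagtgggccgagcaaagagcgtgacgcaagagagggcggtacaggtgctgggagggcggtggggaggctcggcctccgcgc
The strict CArG box of Myl9 began 161 bases before the start site and the MCAT of Lmod1 130 bases before it. The MCAT of Acta2 and that of Smtn, which were not called, began 146 and 222 bases before it. The Smtn window (chr11:3539243-3539542) lies wholly inside the gene as located above, so its start site is not the outermost one. Neither the strict CArG box nor MCAT was in the windows of all 3 lower genes, and a match is only a match of letters.

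Other muscle types bear on the same genes. Heart muscle expresses Des and cardiac paralogs, and of 10 cardiomyocyte markers 5 could be tested and 0 were called. However, all 5 had an unadjusted p below 0.05 in limma in the higher direction (median log2 fold change 0.87), beside 16.1% of all genes. The 10 markers summed to 41.7 to 52.5 RPKM in controls and 68.5 to 72.6 RPKM in iPCKO libraries, most of it Actc1 (32.9 and 44.1 RPKM). Nppa, the atrial natriuretic peptide gene, was listed at 0 in 5 of the libraries. Of 9 skeletal muscle markers, 8 were below 1 RPKM in every library. Among the listed smooth muscle markers other than the 10 genes, Pln, Casq2 and Ckm (also listed for skeletal muscle) were below 1 RPKM throughout and 5 could be tested. Of these, Ntrk3 was lower in all 3 iPCKO libraries (5.45 to 3.15 RPKM, a log2 change of -0.78, adjusted p = 0.00144). No call was made for the others, with log2 fold changes of 0.60 for Kcnmb1 (higher in all 3 iPCKO libraries, adjusted p = 0.0392), -0.22 for Cacna1c (lower in all 3, adjusted p = 0.155), 0.09 for Hhip and -0.01 for Rgs4. Of 13 fibroblast and myofibroblast markers, 0 were called higher and 1 lower, beside 4.11% and 2.68% of all genes tested. An unadjusted p below 0.05 in limma was found for 5 that were higher and 2 that were lower, beside 16.1% and 13.6% of all genes. The marker called lower was Eln, the elastin that alveolar myofibroblasts lay down, at 1504, 2001 and 1602 RPKM in controls and 784, 834 and 558 RPKM in iPCKO libraries (-1.24, adjusted p = 0.00422). At the protein level, the paper found no significant change of tropoelastin or αSMA in mutant lungs at P7, by staining and by blot. Those assays differ in design from the RNA here. They used Cre-negative littermates as controls and tamoxifen from P1 to P3, and measured lung tissue that includes cells without Cre activity. The median log2 fold change of these 13 was -0.03. Of 13 pericyte markers, 3 were called higher (Abcc9, Cspg4 and Kcnj8) and 3 lower (Rgs5, Mcam and Notch3), beside the same 4.11% and 2.68%. The part of any cell type in the changes of the contractile genes was not tested.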

How the data were processed

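Per the labels and the methods, ribosome-associated RNA was made into stranded total RNA libraries, sequenced as paired ends of 75 bases, mapped to mm10 (GRCm38) with TopHat and counted per gene with HTSeq 0.6.1. The authors deposited RPKM per Ensembl gene for each library. The exon length behind RPKM and the strand setting of counting are not given in the sources used here. RPKM keep no read counts, so the error from counting, which is larger for genes with few reads, could not be modelled from them. Depth was read from low values of 4146 genes with a single transcript, of which 75.9% to 77.4% at 10 or fewer reads came out within 0.02 of a whole read. GENCODE M21 named 21375 genes.

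The test was limma 3.58.1 in R 4.3.3 (lmFit, eBayes with trend, two-sided) on log2(RPKM + 0.1), for genes that reached 1 RPKM in 3 or more libraries, with Benjamini-Hochberg adjustment over all 12034. Fold changes on this scale understate those of low genes. Tested on simulated data for this comparison, the fit recovered 60.5% of 200 genes changed by 1 and 93.0% of 200 changed by 2 on the log2 scale among 12034 genes. Shares were compared by exact permutation. Groups and replicate numbers came from the labels, which name no batch. The genes, lists and tests were chosen with earlier results of these data known. Named genes are the 10 genes, the largest called changes of each list (at most 4 per direction), a fixed set of partners, paralogs and regulators, and the 10 genes most alike. Others (Abcc9, Kcnj8, Csrp1, Actc1, Nppa, Pln, Casq2, Ckm, Kcnmb1, Cacna1c, Hhip, Rgs4, Mrvi1) were chosen after their values were seen. The call thresholds are the study's own. The alternatives were the replicate block, pseudocounts, filters, scalings, sample weights, thresholds and leaving out each library.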

Additional observations from a re-analysis of the deposited data

How the results depend on the processing

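Of the 17 alternatives, Actg2, Cnn1, Myl9 and Synpo2 were called in all 17 and Lmod1 in 16, being lost only where an absolute log2 fold change above 1 was asked. Leaving out each library kept all 5 called, with the highest adjusted p at 0.009 (limma, Lmod1 without control 3). The other 5 contractile genes were called in 0 of 17, and the log2 fold changes ran from -0.05 to 0.13 for Acta2, from -0.23 to 0.00 for Myh11 and from -0.13 to 0.03 for Des. Across 41 named genes and these alternatives, 668 of 697 values kept their side of the threshold, 27 lost and 2 gained a call, and 0 calls turned round. The sign differed in 22 of the values, all of genes not called (Acta2, Des, Myh11, Actb, Actg1, Cnn3, Mrtfb, Tpm1 and Wwtr1).

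Counts over all genes moved more (817 called, 495 higher, 322 lower). With sample weights they were 1590, 998 and 592, at an adjusted p below 0.05 they were 1313, 802 and 511, and at an absolute log2 fold change above 1 they were 411, 276 and 135. Leaving out each library gave 382 to 899, 222 to 558 and 160 to 341, the lowest without control 3. Of the other contractile genes (3 called), 1 was called with no filter on low values, 6 with sample weights, 5 at an adjusted p below 0.05, 1 at the log2 fold change of 1, and 1 to 3 with a library left out. Of the paralogs (3 called), 1 was called at the log2 fold change of 1 and 1 to 3 with a library left out. Sample weights called 1 gene of light chain regulation (Mrvi1, 0.67) against 0, and 2 factors against 1 (Myocd joined at 0.55), and a log2 fold change above 1 left 0 factors. The cause was not tested, beyond the looser or stricter thresholds and the smaller samples themselves.

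The labels number the libraries 1 to 3 in both groups. Deviations of same-numbered libraries from their group means correlated at 0.24, 0.09 and 0.02. Those of other pairs ran from -0.30 to 0.27, control 2 going best with iPCKO 3. With 3 libraries a group, these values cannot decide whether the numbers pair the libraries. With the replicate block, 922 genes were called (579 higher, 343 lower), with the contractile genes at 2 higher and 3 lower. RPKM keep no counts, so no count test was run, and 3 libraries a group cannot give an exact permutation p below 0.1.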

Other observations

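Within groups, the 10 contractile genes did not vary together. Over the 6 libraries, with each group's mean removed, the correlation of log2 levels had a median of -0.20 over the 45 pairs of genes, and 19 pairs were above 0. The highest values were 0.96 for Des with Smtn and 0.89 for Acta2 with Actg2, and the lowest was -0.89 for Myl9 with Lmod1. These are descriptions over 6 libraries, and all genes of a library share its depth and preparation. By the same measure, the genes most like the mean of the 10 among 8187 genes of at least 5 RPKM on average were Sfrp2, Zfp335, Boc, Selenbp1, Olfml2b, Stk10, Csf1r, Srpx, Adamts15 and Safb, at r between 0.97 and 0.99. They were picked as the highest of 8187 values over 6 libraries, so these r are no evidence of a link.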
